A study of Mus musculus with 14 samples.

Results

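The liver makes most of the proteins that clot blood and dissolve the clot, and the genes described here encode 34 of them: the clotting factors and their cofactors, the chains of fibrinogen, the inhibitors of the clotting proteases and the plasminogen system. They form a list of gene symbols set by role, drawn up with earlier results of these data known, and each stands by the probe set with the highest mean over the 14 arrays among those annotated to exactly 1 symbol. In all, 32 of the 34 were measured, among 19938 genes on the array. Klkb1, plasma prekallikrein, lay only in a probe set shared with a further gene, and no probe set was annotated to Cpb2, an inhibitor of fibrinolysis, so neither is described. The livers came from HFM mice, 7 in number, which received MSCs, and from 7 HFS mice, which received saline (called PBS in part of the methods) as vehicle. All were male C57BL/6 mice of 24 weeks that had eaten a high-fat diet for 20 weeks. The MSCs were human bone marrow cells of a single donor that carried GFP, were injected into the tail vein, and livers were collected 24 h later. Each mouse gave 1 array, and the values are log2 expression, so that a difference of 1 would be a doubling.

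Coagulation runs as a chain of proteases. Tissue factor with factor VII, or the contact factors, activate factor X, which with factor V turns prothrombin into thrombin, and thrombin cuts fibrinogen into fibrin. Antithrombin, the protein C pathway and tissue factor pathway inhibitor hold the chain back, and plasmin, made from plasminogen, dissolves fibrin. Hepatocytes secrete most of these proteins, whereas von Willebrand factor, factor VIII, thrombomodulin and the protein C receptor are made mainly by endothelial cells. Fibrinogen is also an acute phase protein, whose genes respond to interleukin-6.

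Array medians lay between 4.24 and 4.35, and pairs of arrays correlated at 0.970 to 0.991 over all probe sets. The labelled tissue matched its markers: the 10 hepatocyte markers measured had a median level of 12.48 in HFM and 12.48 in HFS livers, and none passed an unadjusted limma p of 0.05 in either direction. Of the members, 25 had a mean signal above the median probe set of 4.65. The 7 below it were F3, Thbd, Procr, F13a1, Tfpi, Plat and Plau. RNA of whole liver was measured, so fewer cells of a type and less RNA per cell cannot be told apart.

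Blood clotting genes differed little between HFM and HFS livers. The mean was higher in HFM for 26 of the 32 members, or 81.2% of them, where 50.5% of all genes were higher. The members' median difference was 0.07 on the log2 scale, HFM minus HFS, and that over all genes was 0.00. Single differences ran between -0.09 and 0.25. At an unadjusted limma p of 0.05, 3 members were higher in HFM (Pros1, Serpina10 and Serpinf2) and 0 were lower, beside 3.42% of all genes higher and 3.14% lower. After Benjamini-Hochberg adjustment over all probe sets 0 members passed 0.05, with a smallest adjusted limma p of 0.770 among them, and this held for all genes (0% called, smallest adjusted p 0.305 over all probe sets). By the exact permutation test 2 members, Plg and Serpinf2, had an unadjusted p under 0.05, a share like the 6.41% of all genes. The filter named in the study's methods (p below 0.01 before adjustment and a change of 1.2-fold or more, here without the Bonferroni correction that the methods also name) was passed by 0 members and by 0.627% of all genes. The members lie in shared pathways and vary together in part, so the count of 26 is not a count of independent observations.

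The data set a narrow bound on the array signal of each member. For the 7 members below the median probe set, how closely that signal follows the amount of RNA was not tested. The 95% interval of every measured member, taken singly, lay within 1.5-fold of no change in either direction, with outer ends of 0.814-fold for Hrg and 1.41-fold for F11. The plot of differences by role shows the intervals of 29 of the 32 members crossing zero.

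**Figure D1:**
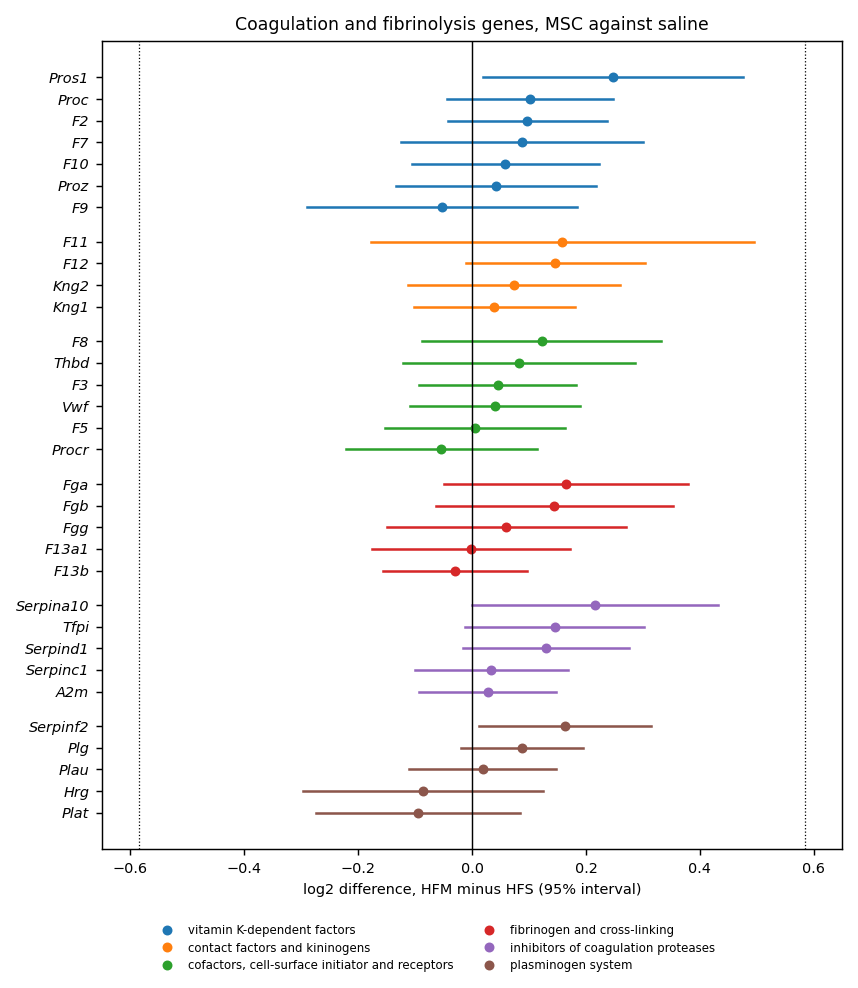
Log2 difference, HFM minus HFS (horizontal axis), for each of the 32 measured members (rows, grouped and coloured by role), with its 95% interval from limma as a line; the solid line marks no change and the dotted lines mark 1.5-fold either way. All intervals lie between the dotted lines, and 26 of the 32 points lie right of the solid line.

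Thrombin's substrate, fibrinogen, is built from the chains encoded by Fga, Fgb and Fgg. In the RefSeq annotation of GRCm38.p6 they are neighbours on chromosome 3, in the order Fgg, Fga, Fgb. Their promoters are shown because fibrinogen is the clotting protein best known as a target of interleukin-6. Each run covers the 250 bases before the annotated start, written 5′ to 3′ on the gene's strand, at chr3:83025903-83026152 (plus strand) for Fga, chr3:83049864-83050113 (minus strand) for Fgb and chr3:83007474-83007723 (plus strand) for Fgg. Capitals mark matches on either strand to CTGGGAA (interleukin-6 response element), TTGCNNAA (C/EBP) and GTTAAT (part of an HNF1 site), which overlap nowhere here.
Fga: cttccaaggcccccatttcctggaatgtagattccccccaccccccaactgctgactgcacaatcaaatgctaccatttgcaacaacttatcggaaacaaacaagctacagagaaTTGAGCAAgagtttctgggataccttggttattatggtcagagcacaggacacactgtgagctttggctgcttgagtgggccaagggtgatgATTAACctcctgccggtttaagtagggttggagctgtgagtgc
Fgb: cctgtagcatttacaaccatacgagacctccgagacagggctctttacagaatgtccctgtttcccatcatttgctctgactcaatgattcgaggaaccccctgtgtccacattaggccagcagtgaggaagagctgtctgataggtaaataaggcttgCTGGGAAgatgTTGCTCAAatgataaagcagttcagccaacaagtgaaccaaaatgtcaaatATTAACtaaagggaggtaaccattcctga
Fgg: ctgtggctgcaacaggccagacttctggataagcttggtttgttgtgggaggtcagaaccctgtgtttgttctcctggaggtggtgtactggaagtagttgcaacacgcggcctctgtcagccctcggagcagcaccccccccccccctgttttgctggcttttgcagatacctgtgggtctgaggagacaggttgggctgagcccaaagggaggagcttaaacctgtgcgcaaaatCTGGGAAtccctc
Fga held the C/EBP letters 135 to 128 bases and the HNF1 letters 43 to 38 bases before the start. Fgb held all of them, the interleukin-6 letters at 91 to 85, the C/EBP letters at 80 to 73 and the HNF1 letters at 29 to 24 bases. Fgg held the interleukin-6 letters alone, 13 to 7 bases before the start. Across the 32851 promoters of the same length these letters occurred in 9.1%, 9.56% and 6.43%. Of the 25 members with a promoter entry, 4 held the interleukin-6 letters (F9, Fgb, Fgg and Tfpi). The C/EBP letters stood in 8, the unmeasured Klkb1 among them, and the HNF1 letters in 4. The percentages count promoters and these counts are of genes, so the units are unlike and are not compared. A match describes the sequence and does not show that a factor binds.

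With all mice, none of the fibrinogen chains passed an unadjusted limma p of 0.05, but for Fga and Fgb single mice decided this. Fgg passed in 0 of the 24 other settings. Without HFM1 Fga (difference 0.226) and Fgb (0.2085) passed, and Fga also did without HFS5 (0.2144) and with the replicate number as a block. Without HFM5 the difference of Fgb was 0.0804. Fga lay at 9.11 in the lowest, 9.43 in the median and 9.75 in the highest HFM liver, and at 9.04, 9.32 and 9.61 in HFS livers. The groups overlapped, although 6 of 7 HFM livers lay above the HFS mean. The difference was 0.16 ± 0.10 (SE, n = 7 each), which is 1.12-fold with a 95% interval of 0.967 to 1.30 (unadjusted limma p = 0.122, exact permutation p = 0.162, adjusted limma p = 0.813). A second probe set of Fga, dimmer at 7.57 in HFM and 7.30 in HFS, differed by 0.27 ± 0.18 (SE). Fgb had 11.68, 12.06 and 12.45 as lowest, median and highest values in HFM livers, against 11.68, 11.92 and 12.13 in HFS livers. Its difference was 0.14 ± 0.10 (SE), or 1.11-fold with an interval of 0.957 to 1.28 (exact permutation p = 0.213, adjusted limma p = 0.826). Fgg lay at 11.65, 12.03 and 12.41 in HFM livers and at 11.73, 11.999 and 12.17 in HFS livers, and the lowest value of all came from an HFM liver. Fgg differed by 0.06 ± 0.10 (SE), 1.04-fold with an interval of 0.902 to 1.21, and by -0.0048 after quantile normalization, so no direction can be given for it.

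**Figure D2:**
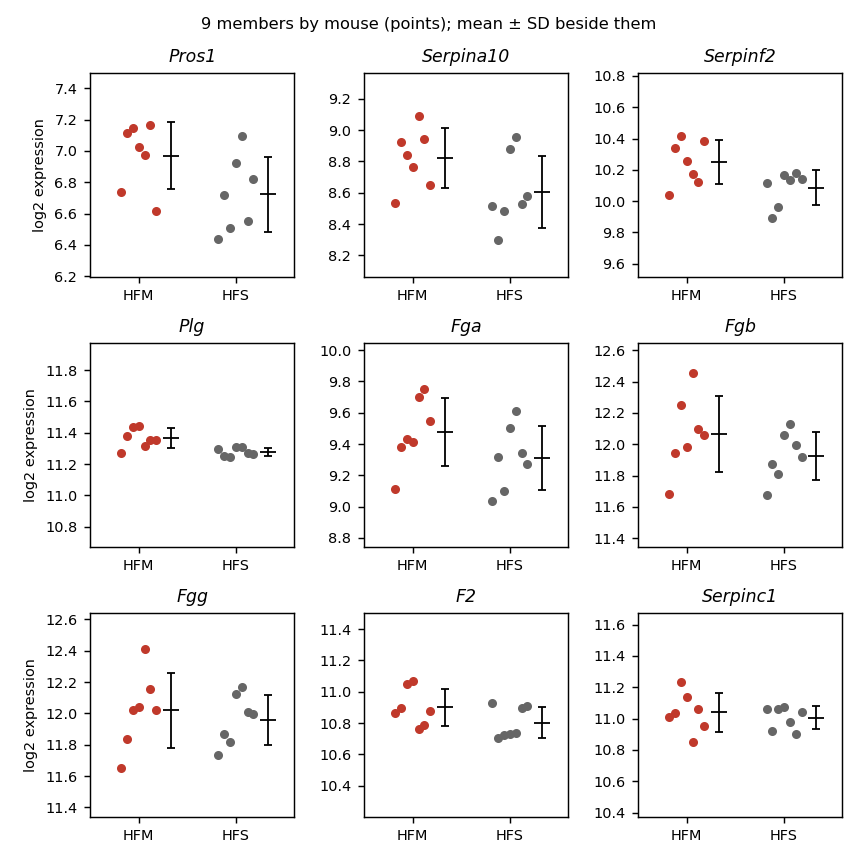
Log2 expression (vertical axis, the same span in every panel) in each mouse, HFM in red at left and HFS in gray at right. Shown are Pros1, Serpina10, Serpinf2 and Plg, the fibrinogen chains, prothrombin and antithrombin. The first 4 had an unadjusted p under 0.05 by limma or by the exact permutation test. A point is a mouse, and the bar beside the points is the mean ± SD of 7 mice. The groups overlap in every panel, and Plg is the panel with the least overlap, 6 of 7 HFM livers above every HFS liver.

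The SD of the chains within each group was larger than their difference between groups, and the chains varied together. In HFM and HFS livers the SD was 0.22 and 0.20 for Fga, 0.24 and 0.15 for Fgb and 0.24 and 0.16 for Fgg. The differences were 0.16, 0.14 and 0.06. Over the 14 mice Fga spanned 1.64-fold, Fgb 1.71-fold and Fgg 1.70-fold. With each group's mean removed, Fgb and Fgg correlated at r = 0.94 (permutation p = 1.0e-05, the smallest that the permutations can give, adjusted 4.0e-05 over the 4 relations tested) and rho = 0.91 (permutation p = 4.0e-05, adjusted 0.00016). Fga and Fgg gave r = 0.90 (permutation p = 3.0e-05, adjusted 6.0e-05) and rho = 0.89 (p = 0.00013, adjusted 0.00026), and Fga and Fgb gave r = 0.83 (permutation p = 0.00022, adjusted 0.000293) and rho = 0.84 (p = 0.00042, adjusted 0.00056). HFM1 had the lowest and HFM5 the highest Fgb and Fgg of the HFM livers. Without the pair of mice farthest from the median, r was 0.84 for Fgb and Fgg (HFM1 and HFM5 left out), 0.85 for Fga and Fgg and 0.73 for Fga and Fgb (HFM1 and HFS5 left out for both). Within groups, Fgb and Fgg gave r = 0.92 in HFM (exact p = 0.00833) and 0.98 in HFS (exact p = 0.000397). The HFM value was 0.48 without HFM1 and HFM5, so within HFM it rested on those livers. Fga and Fgb gave 0.78 in HFM (exact p = 0.0421, adjusted 0.0561) and 0.96 in HFS (exact p = 0.00119), and Fga and Fgg 0.89 in HFM (exact p = 0.0129) and 0.95 in HFS (exact p = 0.00278).

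The acute phase genes of the liver were set beside fibrinogen, which belongs to the same response. Of 18 acute phase genes measured, 10 were higher at an unadjusted limma p of 0.05 and 0 lower, with a median difference of 0.28. Of all genes 3.42% were higher and 3.14% lower. After adjustment 0 of the 18 passed. The count of 10 was 8 after quantile normalization, and 7 passed an unadjusted exact permutation p of 0.05, beside 6.41% of all genes. The list was chosen with earlier results of these data known. Saa1, serum amyloid A, was set beside fibrinogen because its difference was known beforehand, so what follows on its size is a description. Saa1 lay at 7.52, 9.02 and 9.59 (lowest, median, highest) in HFM livers and at 4.22, 6.43 and 9.28 in HFS livers, a difference of 2.21 ± 0.61 (SE), whereas the chains differed by 0.06 to 0.16. The difference of Saa1 was the largest of all genes, so it does not stand for the whole acute phase list. The 8 acute phase genes that did not pass included Crp (-0.03), Apcs (0.01), Cp (0.03) and Socs3 (0.02). The others of the 8 were Itih3 (0.22), Saa4 (0.19), Lbp (0.18) and Il1rn (0.08). The HFM liver with the lowest Saa1, HFM5 at 7.52, had the highest Fgb of all mice at 12.45 and the highest Fgg at 12.41. HFS5 went the other way. Its acute phase genes, as the mean deviation from each gene's mean, were the highest of all mice at 0.57. It also had the highest Fga (9.61), Fgb (12.13) and Fgg (12.17) of the HFS livers. Over 14 mice with the group means removed, Saa1 and Fga correlated at r = 0.18 (permutation p = 0.536, adjusted 0.536) and rho = 0.24 (permutation p = 0.418), and at r = 0.13 without HFS4 and HFS5. Within HFM the value was r = -0.06 (exact p = 0.897), and 0.77 without HFM4 and HFM5. Within HFS it was 0.31 (exact p = 0.5). The relation in HFM therefore depended on which livers were kept.

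**Figure D3:**
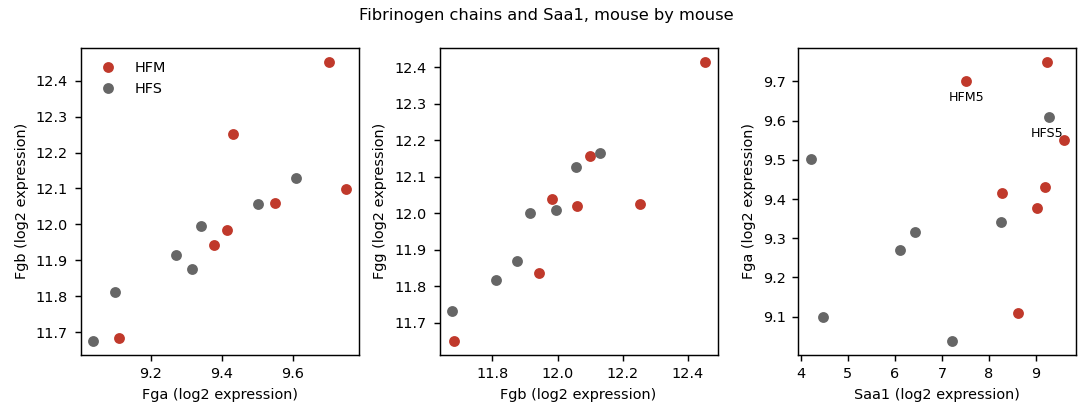
Log2 expression of Fgb against Fga (left), Fgg against Fgb (middle) and Fga against Saa1 (right) in each mouse, HFM in red and HFS in gray; a point is a mouse. The chains climb together in both groups. The values are drawn without removing group means. So taken, Saa1 and Fga gave r = 0.38 (permutation p = 0.179) and rho = 0.53 (permutation p = 0.0519) over the 14 mice. HFM5 and HFS5 are labelled in the Saa1 panel.

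Among the cross-linking genes, F13a1, the catalytic subunit of factor XIII, differed by -0.00 ± 0.08 (SE), with 3.72 ± 0.16 in HFM and 3.73 ± 0.16 in HFS livers (SD, n = 7 each), and its sign turned to 0.0189 after quantile normalization and to 0.0226 with each array's median subtracted. F13a1 is known to be made by macrophages, and the markers of Kupffer cells and macrophages are given further on. F13b, the carrier subunit, had 7.63 ± 0.10 in HFM and 7.66 ± 0.07 in HFS livers.

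The vitamin K-dependent proteins are made as precursors whose glutamates are carboxylated in hepatocytes. Of the 7, 6 had a higher mean in HFM, and Pros1 alone passed an unadjusted limma p of 0.05. Pros1 encodes protein S, the cofactor of activated protein C. It lay at 6.62, 7.02 and 7.17 (lowest, median, highest) in HFM livers and at 6.44, 6.72 and 7.10 in HFS livers. The 3 highest of 14 values came from HFM2, HFM3 and HFM6 and the 3 lowest from HFS livers, but the groups overlapped between 6.62 and 7.10. Pros1 differed by 0.25 ± 0.11 (SE), the largest difference of the members, or 1.19-fold with an interval of 1.01 to 1.39 (unadjusted limma p = 0.0356, exact permutation p = 0.0676, adjusted limma p = 0.770). Proc, protein C itself, had 9.34 ± 0.14 in HFM and 9.24 ± 0.09 in HFS livers (SD), a difference of 0.10 ± 0.07 (SE). F2, prothrombin, had 10.90 ± 0.12 in HFM and 10.80 ± 0.10 in HFS livers. F7, the partner of tissue factor, had 7.61 ± 0.26 in HFM and 7.52 ± 0.14 in HFS livers. F10 differed by 0.06 and Proz, the cofactor of the inhibitor encoded by Serpina10, by 0.04. F7, F10 and Proz are neighbours on chromosome 8. F9, which with its cofactor factor VIII activates factor X, was the exception in sign, with 8.59 ± 0.25 in HFM and 8.64 ± 0.22 in HFS livers. Of the genes that recycle vitamin K or help these proteins to be secreted, 8 were measured and 0 passed in either direction, with a median difference of -0.05. Ggcx, the carboxylase, had 7.75 ± 0.14 in HFM and 7.68 ± 0.21 in HFS livers.

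The contact factors start clotting on charged surfaces, and all 4 measured genes of this role had a higher mean in HFM, 0 of them at an unadjusted limma p of 0.05. F12 lay at 9.32, 9.64 and 9.87 (lowest, median, highest) in HFM livers and at 9.30, 9.44 and 9.57 in HFS livers, with 4 HFM livers above every HFS liver. Its difference was 0.15 ± 0.08 (SE; unadjusted limma p = 0.0673, exact permutation p = 0.0659). F11, the factor that activates factor IX, was the most variable member. It spanned 2.59-fold over the 14 mice, with 6.92, 7.09 and 7.72 in HFM livers and 6.34, 7.21 and 7.37 in HFS livers, and HFS2 and HFS6 lay lowest. The HFM mean of F11 was higher by 0.16 ± 0.16 (SE) while its HFM median was the lower, and that difference was 0.0464 without HFS2, 0.0681 without HFM2 and 0.0866 without HFS6. Kng1 and Kng2 encode kininogens, from which bradykinin is cut, and lie next to each other and to Hrg on chromosome 16. Kng1 had 11.37 ± 0.13 in HFM and 11.33 ± 0.09 in HFS livers, and Kng2 10.002 ± 0.20 in HFM and 9.93 ± 0.15 in HFS livers.

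Of the 6 cofactors and cell-surface members 5 had a higher mean in HFM, and 0 passed an unadjusted limma p of 0.05. F3, tissue factor, the trigger of the chain, had 3.90 ± 0.13 in HFM and 3.86 ± 0.08 in HFS livers. F5, the cofactor of factor X, had 9.58 ± 0.13 in HFM and 9.58 ± 0.15 in HFS livers and no stable sign (0.00 as deposited, -0.0268 after quantile normalization). F8 differed by 0.12 ± 0.10 (SE), and Vwf, its carrier in plasma, by 0.04 ± 0.07 (SE). Thbd, thrombomodulin, which turns thrombin toward protein C, had 4.38 ± 0.18 in HFM and 4.29 ± 0.21 in HFS livers. Procr, the endothelial receptor of protein C, had 4.41 ± 0.17 in HFM and 4.47 ± 0.13 in HFS livers. Beside these, 0 of 12 endothelial markers passed in either direction, and their median difference was 0.06. With array medians subtracted 1 of them, Lyve1, passed (0.2916).

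All 5 measured inhibitors of clotting proteases had a higher mean in HFM, with a median difference of 0.13, and Serpina10 passed an unadjusted limma p of 0.05. For Serpinc1 the sign turned to -0.0019 after quantile normalization. Serpina10 encodes the protein Z-dependent inhibitor of activated factor X. It lay at 8.53, 8.84 and 9.09 (lowest, median, highest) in HFM livers and at 8.30, 8.53 and 8.96 in HFS livers. Only HFM5 lay above every HFS liver, and 4 HFS livers lay below every HFM liver. The difference was 0.22 ± 0.10 (SE), or 1.16-fold with an interval that starts at 1.00 (unadjusted limma p = 0.0497, exact permutation p = 0.0822, adjusted limma p = 0.772). Tfpi, tissue factor pathway inhibitor, had 4.04, 4.33 and 4.54 in HFM livers against 4.00, 4.17 and 4.32 in HFS livers, with 4 HFM livers above every HFS liver (difference 0.15 ± 0.07, SE, unadjusted limma p = 0.0677, exact permutation p = 0.067). Serpind1, heparin cofactor II, an inhibitor of thrombin, had 10.13 ± 0.15 in HFM and 9.997 ± 0.09 in HFS livers. Serpinc1, antithrombin, the main inhibitor of thrombin, had 11.04 ± 0.12 in HFM and 11.01 ± 0.07 in HFS livers. A2m, a protease trap, had 4.86 ± 0.07 in HFM and 4.83 ± 0.08 in HFS livers.

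In the plasminogen system, 3 of 5 measured members had a higher mean in HFM, and the median difference was 0.02. Plg, plasminogen, lay at 11.27, 11.36 and 11.44 (lowest, median, highest) in HFM livers and at 11.24, 11.27 and 11.31 in HFS livers. Of the HFM livers 6 of 7 lay above every HFS liver, and HFM1 alone fell among them. The shift was small, 0.09 ± 0.05 (SE) or 1.06-fold, and Plg was the member with the narrowest range over the 14 mice, 1.15-fold. Its exact permutation p was 0.00466, or 0.756 after adjustment over all probe sets, while limma, which draws small variances toward those of other probe sets, gave an unadjusted p of 0.104. Serpinf2 encodes alpha-2-antiplasmin, the inhibitor of plasmin. It lay at 10.04, 10.26 and 10.41 in HFM livers and at 9.89, 10.14 and 10.18 in HFS livers. The 4 highest values came from HFM2, HFM3, HFM4 and HFM7, whereas HFM1, HFM5 and HFM6 fell among the HFS livers. The difference was 0.16 ± 0.07 (SE), 1.12-fold with an interval of 1.01 to 1.24 (unadjusted limma p = 0.0366, exact permutation p = 0.0385, adjusted limma p = 0.770).

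The activators of plasminogen lay among the dim members. Plat, the tissue-type activator, had 3.50 ± 0.16 in HFM and 3.60 ± 0.17 in HFS livers, and Plau, urokinase, 3.59 ± 0.06 in HFM and 3.58 ± 0.12 in HFS livers. Hrg, histidine-rich glycoprotein, which binds plasminogen and heparin, had 11.14 ± 0.18 in HFM and 11.22 ± 0.23 in HFS livers.

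Further genes of the pathway were followed in 5 lists of inhibitors, receptors and helpers, 43 genes measured of 51. Of these, 24 had a higher mean in HFM, or 55.8% beside 50.5% of all genes, and their median difference was 0.01. At an unadjusted limma p of 0.05, 3 were higher and 1 was lower, beside 3.42% of all genes higher and 3.14% lower. All 4 belonged to the list of plasminogen receptors, regulators and clearance, of which 7 were measured. Lrp1, a receptor that clears complexes of plasminogen activators and their inhibitors and is also found on macrophages, lay at 9.03, 9.23 and 9.43 in HFM livers and at 8.71, 8.95 and 9.16 in HFS livers. In 6 of 7 HFM livers Lrp1 was above every HFS liver. It differed by 0.28 ± 0.07 (SE), 1.21-fold, with an unadjusted limma p of 0.00131, an exact permutation p of 0.00117 and an adjusted limma p of 0.714. Anxa2, a cell-surface docking site for plasminogen, had 6.68 ± 0.33 in HFM and 6.23 ± 0.38 in HFS livers. Plgrkt, a plasminogen receptor, had 4.23 ± 0.27 in HFM and 3.91 ± 0.25 in HFS livers. Clec3b, tetranectin, which binds plasminogen, was the lower, with 4.46 ± 0.10 in HFM and 4.60 ± 0.10 in HFS livers, and it missed that p after quantile normalization and with array medians subtracted. In the other lists 0 genes passed: 13 plasma inhibitors and related proteases, 12 thrombin receptors and vessel-wall regulators, 3 clearance receptors and the vitamin K genes above. Of 12 liver transcription factors 0 passed, with a median difference of 0.02. After quantile normalization Foxa1 (-0.2976), a transcription factor, and Mcfd2 (-0.1559), which helps factors V and VIII to be secreted, passed as lower, and both were named after their values were seen.

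Macrophage markers differed in the same direction as Lrp1, Anxa2 and Plgrkt, the genes of the plasminogen list that passed as higher. S100a10 of that list also had a higher mean in HFM (0.16), while Clec3b (-0.14), Plaur (-0.11) and Serpinb2 (-0.05) had lower ones. All 14 Kupffer cell and macrophage markers had a higher mean in HFM, 5 of them at an unadjusted limma p of 0.05, with a median difference of 0.29. Of all genes 50.5% had a higher mean and 3.42% were higher at that p. After quantile normalization 4 of the 14 passed, and 2 passed an unadjusted exact permutation p of 0.05. After adjustment 0 passed. The list was chosen with earlier results of these data known. The level of these markers in a liver, as the mean deviation from each gene's mean, ran between -0.26 and 0.76 in HFM livers. In HFS livers it ran between -0.48 and 0.51. Mpeg1 had 7.37 ± 0.25 in HFM and 6.86 ± 0.48 in HFS livers, Cd5l 8.02 ± 0.44 in HFM and 7.47 ± 0.50 in HFS livers, and C1qb 7.81 ± 0.39 in HFM and 7.40 ± 0.38 in HFS livers. No marker was at 0, since every probe set has a signal. Markers of stellate cells and fibroblasts had a higher mean in HFM for 8 of 10, with 2 past an unadjusted limma p of 0.05. Their median difference was 0.16, and their mean deviations were -0.15 to 0.23 in HFM and -0.20 to 0.08 in HFS livers. Neutrophil markers had a higher mean for 7 of 9, with 1 past that p and a median of 0.23. Their mean deviation was 1.23 in HFM2 but at most 0.41 in every other liver. The part of these cell types in the values of Lrp1, Anxa2 and Plgrkt was not tested. Of 8 platelet, 3 erythroid and 5 cholangiocyte markers measured 0 passed an unadjusted limma p of 0.05. Of 8 B and T lymphocyte markers 1 was higher and 1 lower at that p. The hepatocyte markers, where most members are made, ran at -0.09 to 0.13 in HFM and -0.09 to 0.10 in HFS livers.

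Mice differed in how many members lay above the mean of the 14 livers. HFM4 had 26, HFM3 22 and HFM2 21 of 32, but HFM1 8, HFM5 12 and HFM7 13, while in HFS livers the counts ran between 9 and 19. The members' mean deviation ran between -0.07 and 0.10 in HFM livers and between -0.09 and 0.03 in HFS livers, and HFM1, HFM5 and HFM7 lay within the HFS range. HFS2 had the lowest value in 7 members, F11 and Serpina10 among them. With the group means removed, the 496 pairs of members correlated at -0.85 to 0.94 over the 14 mice, with a median of 0.07, as a description over values that share arrays. Only 8 pairs reached 0.8. The fibrinogen chains gave the 1st, 2nd and 5th of them, and neighbours Kng1 and Kng2 gave 0.88. Serpind1 went with Kng1 (0.84), Proz (0.81) and F10 (0.81), and Kng1 also with Serpinc1 (0.80). Fga and Plau gave the lowest value. The heat map by role shows the chains sharing colours in each mouse, and no role in which a whole group of mice stands apart.

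**Figure D4:**
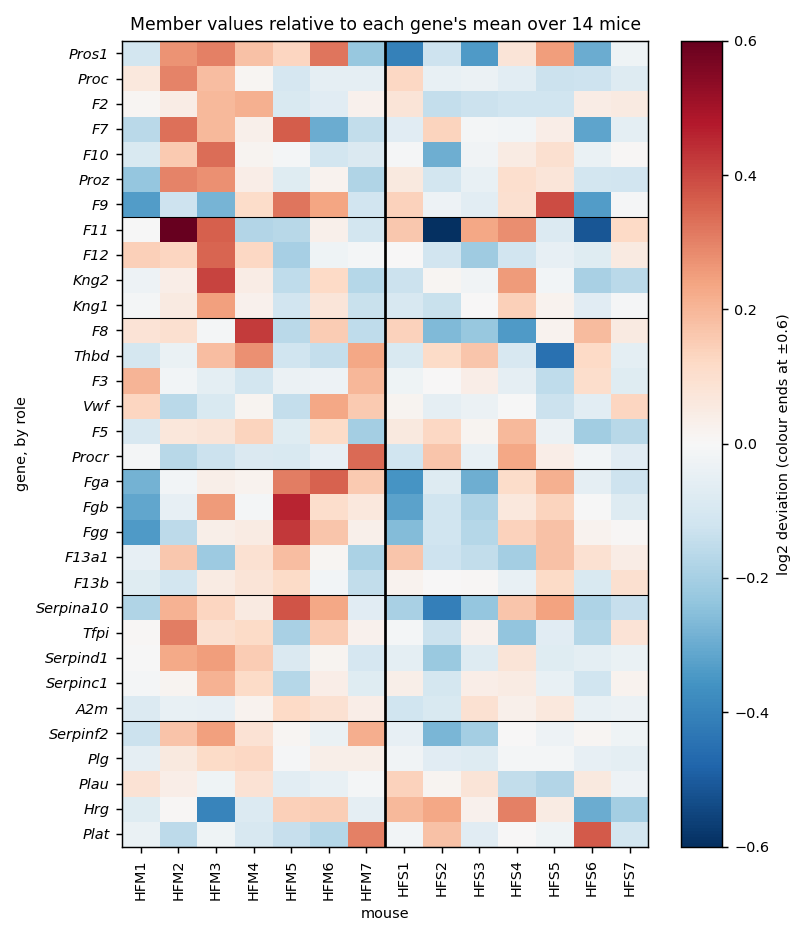
Log2 deviation of each measured member (rows, by role, with lines between roles) from its own mean over 14 mice, in each mouse (columns, HFM at left and HFS at right of the vertical line); red is above and blue below the mean. HFM2, HFM3 and HFM4 are red in most rows, with 21, 22 and 26 members above the mean, and HFM1 is blue in most, with 8.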

How the data were processed

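Liver RNA of 7 HFM and 7 HFS mice was hybridized to Affymetrix GeneChip Mouse Gene ST arrays, from 5 µg of total RNA, with 1 array per mouse and none pooled. The authors made 1 log2 value per probe set, normalized across arrays, and deposited these values; Affymetrix Expression Console was used with RMA according to the labels and PLIER according to the paper, versions not given in the sources used here. No batch or scan date was given. Of 35556 probe sets, 23410 with a symbol were tested (21789 with 1 symbol, 1621 with several) and 12146 were not used here; 0 value columns were left out.

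HFM minus HFS was fitted with limma 3.58.1 (lmFit, eBayes; R 4.3.3) without covariates, with Benjamini-Hochberg adjustment over all tested probe sets. Exact permutation tests were two-sided over 3432 assignments of the 14 mice (smallest p 0.000583). Genes were counted by their brightest probe set with 1 symbol; intervals are at 95%. Relations used 1e+05 permutations for 14 mice and all orders within a group. The scripts were tested on simulated data. Other settings tried were quantile normalization, array medians subtracted, the replicate block, mice left out in turn, weighted arrays, eBayes with a trended and robust prior, no moderation, the brighter probe sets alone, probe sets without a symbol added, genes tested once each, and averaged probe sets. All members are named; of other lists, those past an unadjusted p of 0.05 (at most 4), of marker lists 3 where they moved with a result, and Saa1 and Ggcx were chosen after their values were seen. Members and lists were chosen with earlier results of these data known. Promoters are RefSeq's (GRCm38.p6, 250 bases); 25 of 34 members had an entry.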

Additional observations from a re-analysis of the deposited data

Results flagged for a closer look

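In each group of 7, the highest or lowest mouse was set against the others, for the 32 members in both groups (64 groups of values). In 6 of them a mouse stood far from the rest, by a rule that a single group meets by chance about 1 time in 20. The 64 groups share the same 14 arrays and are not independent, so no excess over chance can be read from the 6. Among the HFM livers, HFM7 had the highest Procr at 4.7795, the others lying at 4.27 to 4.43, and the highest Plat at 3.8516, the others at 3.38 to 3.52. HFM3 had the lowest Hrg at 10.7839, with the others at 11.10 to 11.33. Among the HFS livers, HFS2 had the lowest F10 at 8.5184 (others 8.77 to 8.91), HFS1 the highest Proc at 9.4145 (others 9.16 to 9.26) and HFS5 the lowest Thbd at 3.8888 (others 4.24 to 4.501). None of these genes passed an unadjusted limma p of 0.05 with or without that mouse, but most of their differences moved with it. Without HFM7 the difference was -0.1152 for Procr (-0.054 with all mice) and -0.1531 for Plat (-0.0948). Without HFM3 it was -0.0276 for Hrg (-0.0865), without HFS2 0.0148 for F10 (0.0585), without HFS1 0.1302 for Proc (0.101) and without HFS5 0.0145 for Thbd (0.0819).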

How the results depend on the processing

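The count of members higher in HFM at an unadjusted limma p of 0.05, 3 as reported, was 1 after quantile normalization (Tfpi), 5 with each array's median subtracted (Pros1, F12, Serpina10, Tfpi and Serpinf2), 1 with array weights, 1 with a trended and robust prior (Pros1 in both) and 0 to 5 with a mouse left out. It was 0 without HFM2, HFM3, HFM4 or HFS3, and 5 without HFM1 (Fga and Fgb among them) or HFM5. Of all genes 4.38% were higher with array weights, 3.21% with the trended and robust prior and 2.39% to 5.30% with a mouse left out (3.43% without HFM1, 5.30% without HFM5). The other settings gave 2 or 3, of which the unmoderated test called Plg and Serpinf2. No setting gave a member lower at that p or past an adjusted p of 0.05. The study's filter was passed by 0 to 1 members with a mouse left out (Pros1, without HFM7 or HFS5). The members' median difference, 0.0671, ran between 0.0476 and 0.0920 with a mouse left out. The members above 0 numbered 24 (75.0%) after quantile normalization and 27 (84.4%) with medians subtracted, beside 48.6% and 60.6% of all genes, and the shares of all genes called higher and lower were 2.94% and 3.00%, and 5.12% and 1.99%.

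Signs turned in 7 genes. Quantile normalization gave F5 -0.0268, Fgg -0.0048, F13a1 0.0189 and Serpinc1 -0.0019, and F13a1 was 0.0226 with medians subtracted and 0.0210 with array weights. With a mouse left out, differences ran between -0.0359 and 0.0343 for F13a1, -0.0033 and 0.0844 for Proz, -0.029 and 0.0397 for F5, -0.0057 and 0.1215 for Fgg, -0.0096 and 0.0425 for Plau, and -0.113 and 0.0077 for F9. Over 24 settings and 761 single values, 686 kept sign and side of the threshold, 35 lost the call (3 genes), 15 gained it (6 genes) and 25 changed sign (7 genes). The causes were not tested.

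Replicate numbers did not pair the mice: same-numbered deviations correlated at -0.20 to 0.14, with 1 of 7 pairs over 0.1 and 0 mice closest to their own number. With the replicate block 3 members were higher, Fga in place of Serpinf2. Without centring on group means, Saa1 and Fga correlated at r = 0.38 (permutation p = 0.179) and rho = 0.53 (permutation p = 0.0519).

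Arrays limit the precision by their number, 7 in each group, and dim members by their signal. Separate mice are the replicates, and litter or cage is not given. Klkb1 and Cpb2 were not analysed here, and protein levels or clotting were not measured.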
